A study of Homo sapiens with 6 samples.

Results

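The genes described here are the nuclear-encoded subunits of respiratory complex III, of complex IV and of the ATP synthase, in HCT116 cells given a control short interfering RNA or one against STRIP2. They were found by symbol: every row of the deposited table named UQCR followed by letters or digits, CYC1, COX4 to COX8 or ATP5, without the 104 rows whose symbols mark pseudogenes. This gave 46 genes of 61806 in the table, of which 10 belong to complex III, 17 to complex IV and 19 to the ATP synthase. HCT116 is a human colorectal carcinoma cell line grown in culture. The control group, si-NC, holds 3 libraries labelled wildtype, and the other group, si-STRIP2, holds 3 libraries labelled as a STRIP2 knockdown. All 6 libraries were made from poly(A) RNA, and the labels give no dose, time after transfection or sequence of either short interfering RNA. The labels do not say whether the 3 libraries were grown as separate cultures, so that the spread between libraries behind the p-values may be technical. The edgeR test used here also draws the spread of each gene toward that of other genes. Its p-values and standard errors therefore do not rest on the libraries of that gene alone.

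Complex III takes electrons from ubiquinol and hands them to cytochrome c, complex IV (cytochrome c oxidase) passes them on to oxygen, and both move protons out of the mitochondrial matrix. The ATP synthase lets the protons back through a rotating ring of c subunits in the inner membrane, and the turning of the ring drives ATP formation in its F1 head. Cytochrome b, the catalytic core of complex IV and a pair of ATP synthase subunits are encoded by the mitochondrial genome, and the other subunits are made in the cytosol from nuclear genes and imported.

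The libraries held 17184963 to 21721218 counts. STRIP2, the targeted gene, had 407, 384 and 385 counts in si-NC and 299, 260 and 261 in si-STRIP2, and fell by 0.46 on the log2 scale (standard error 0.083, edgeR adjusted p = 1.62e-05). Of 6 markers of colorectal epithelium, 5 reached 1 FPKM, and VIL1 did not. Their summed level was 688 to 718 FPKM in si-NC and 664 to 688 FPKM in si-STRIP2, but its members moved in opposite directions. CDH1, which encodes E-cadherin, had 35.1 to 37.95 FPKM in si-NC and 23.99 to 24.55 in si-STRIP2, and fell by 0.60 on the log2 scale (edgeR adjusted p = 1.57e-14). KRT18 and EPCAM fell by 0.18 and 0.11, and KRT19 rose by 0.22 on the log2 scale (edgeR adjusted p = 0.000278, 0.0248 and 1.85e-05). The part of these differences in the results on the subunit genes was not tested. None of the 5 leukocyte and 3 endothelial markers reached 1 FPKM in any library. COL1A1 was the only one of 6 fibroblast markers that did, and COL1A2 and DCN were listed at 0 in every library. In bulk RNA, a change in the make-up of a culture and a change in RNA per cell cannot be told apart.

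The subunit genes were higher in si-STRIP2 cells or did not differ detectably, and none was called lower. Of the 46 genes, 40 had enough counts to be tested, and 29 of these were called higher by edgeR (adjusted p under 0.05 over all genes tested). Among all 15687 tested genes, 27.8% were called higher, 27.0% lower and 54.8% in either direction. By complex, 7 of 10 tested genes of complex III, 9 of 12 of complex IV and 13 of 18 of the ATP synthase were called higher. The median log2 fold change was 0.29 for complex III, 0.20 for complex IV and 0.30 for the ATP synthase, against 0.014 for all genes tested. Of the 29 called genes, 8 changed by less than 1.2-fold, and 12 genes passed an edgeR test against a 1.2-fold change, which 11.3% of all tested genes passed in the upward direction. The FPKM values of the groups, which are counts scaled by exonic size and library total, did not overlap for 27 of the 29 called genes. They lay higher in every si-STRIP2 library for 28 of the 40 tested genes, against 30.0% of all tested genes. For 1 gene, COX6B2 (mean 0.407 FPKM in si-NC, not called), they lay lower in every si-STRIP2 library, as for 4499 of the 15687 tested genes.

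**Figure D1:**
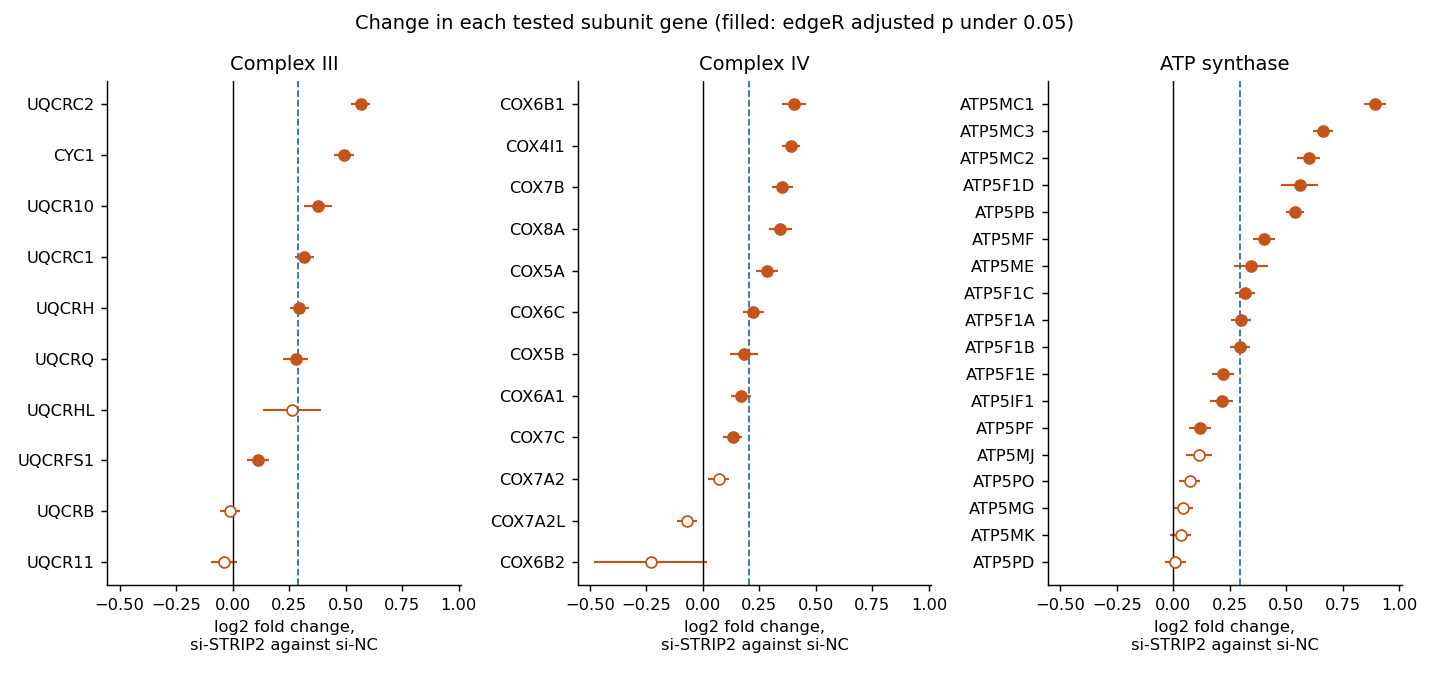
Log2 fold change of each of the 40 tested genes in si-STRIP2 against si-NC (x axis) by gene (y axis), with the standard error as a bar; filled points passed edgeR (adjusted p under 0.05), and the dashed line is the median of the complex. The points reach from -0.23 for COX6B2 to 0.89 for ATP5MC1, and no filled point lies below 0.

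One control library, si-NC 3, had the lowest FPKM of its group for 33 of the 40 tested genes. The matching share over all tested genes was not taken, so this count cannot be read as particular to these genes. It also had the highest share of counts from genes of the mitochondrial genome, 8.88% against 7.28% in si-NC 1 and 4.88% in si-NC 2. The si-STRIP2 libraries had 5.97%, 5.73% and 6.30%. Without si-NC 3, 25 genes were called higher and 0 lower, and the medians were 0.24 for complex III, 0.14 for complex IV and 0.26 for the ATP synthase. With the mitochondrial genes left out of the fit, which was chosen after the data were seen, 27 were called higher and 0 lower. The part of these library differences in the result was not tested beyond these values.

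The c ring of the ATP synthase showed the largest rise. ATP5MC1, ATP5MC2 and ATP5MC3 encode the same mature c subunit, and differ in the targeting peptide that is removed on import. Within the part that codes for the mature subunit, the genes can be told apart only through the bases at which they differ. The exonic sizes are larger, at 2615 bases for ATP5MC1, 3904 for ATP5MC2 and 3883 for ATP5MC3. The counts therefore also draw on sequence outside this part. The last 75 codons, which hold the mature c subunit, are given 5′ to 3′ without the stop codon, read from GENCODE release 29 on GRCh38, with capitals at the 52 of 225 positions where the genes are not all alike. ATP5MC1 lies at chr17:48895222-48895766 on the plus strand, ATP5MC2 at chr12:53665317-53669260 on the minus strand and ATP5MC3 at chr2:175178291-175179169 on the minus strand, and these stretches are interrupted by introns.
ATP5MC1: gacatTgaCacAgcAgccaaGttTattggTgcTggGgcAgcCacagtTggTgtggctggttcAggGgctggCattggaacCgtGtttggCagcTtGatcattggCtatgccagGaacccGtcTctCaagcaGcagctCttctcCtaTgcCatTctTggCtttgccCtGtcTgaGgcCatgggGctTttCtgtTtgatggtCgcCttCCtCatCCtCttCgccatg
ATP5MC2: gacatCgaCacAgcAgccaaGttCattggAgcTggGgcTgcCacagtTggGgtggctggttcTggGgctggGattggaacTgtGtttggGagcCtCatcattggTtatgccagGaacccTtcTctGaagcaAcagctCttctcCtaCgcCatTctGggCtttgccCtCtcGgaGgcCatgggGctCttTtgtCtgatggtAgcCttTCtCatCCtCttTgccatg
ATP5MC3: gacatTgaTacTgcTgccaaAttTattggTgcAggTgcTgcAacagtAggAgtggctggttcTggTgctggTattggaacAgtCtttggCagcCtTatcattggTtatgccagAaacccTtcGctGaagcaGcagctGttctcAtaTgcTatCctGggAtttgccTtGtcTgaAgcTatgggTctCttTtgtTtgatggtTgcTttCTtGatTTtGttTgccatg
The stretches of ATP5MC1 and ATP5MC2 differed at 25 bases, and ATP5MC3 differed from each of them at 42. No encoded residue differed in any of the 3 pairs. The longest run of identical bases was 17.

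ATP5MC1 (ENSG00000159199, chromosome 17, 48892765 to 48895871, plus strand) had 17.38, 17.43 and 16.02 FPKM in the si-NC libraries and 32.2, 31.3 and 31.1 in the si-STRIP2 libraries. The means were 16.9 ± 0.800 and 31.6 ± 0.586 FPKM (SD, n = 3), and the log2 fold change was 0.89 (standard error 0.048, edgeR adjusted p = 4.71e-17), the largest of the 40 tested genes. Every si-STRIP2 library was far above every si-NC library. ATP5MC3 had 24.6, 23.2 and 22.3 FPKM in si-NC and 38.5, 37.4 and 35.7 in si-STRIP2, with a log2 fold change of 0.66 (standard error 0.044, edgeR adjusted p = 1.28e-14). ATP5MC2 had 10.7, 10.7 and 11.1 FPKM in si-NC and 17.4, 16.2 and 15.8 in si-STRIP2, with a log2 fold change of 0.60 (standard error 0.051, edgeR adjusted p = 4.00e-12). The groups did not overlap for either gene. Annotated pseudogenes held few counts, 0.391% of those of ATP5MC1 and 0.275% of those of ATP5MC2. SUMO2P17, which overlaps ATP5MC1, held 11.6% as many counts.

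The summed FPKM of the 3 c-subunit genes rose from 51.2 ± 1.65 to 85.2 ± 2.76 (SD, n = 3) between si-NC and si-STRIP2, a ratio of 1.67. Within this pool the share of ATP5MC1 was 33.0%, 34.0% and 32.4% in the si-NC libraries and 36.6%, 36.9% and 37.7% in the si-STRIP2 libraries. It was thus 3.94 percentage points higher in si-STRIP2, and no library of one group reached the other. The matching difference was -1.91 points for ATP5MC2 and -2.04 points for ATP5MC3. Each difference had p = 0.1 in an exact 2-sided permutation test, the smallest p that 3 against 3 libraries allow, and an adjusted p of 0.1 over the 3 genes. With the median length of each gene's coding transcripts in place of the deposited exonic size, the differences were 4.00, -1.96 and -2.03 points.

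**Figure D2:**
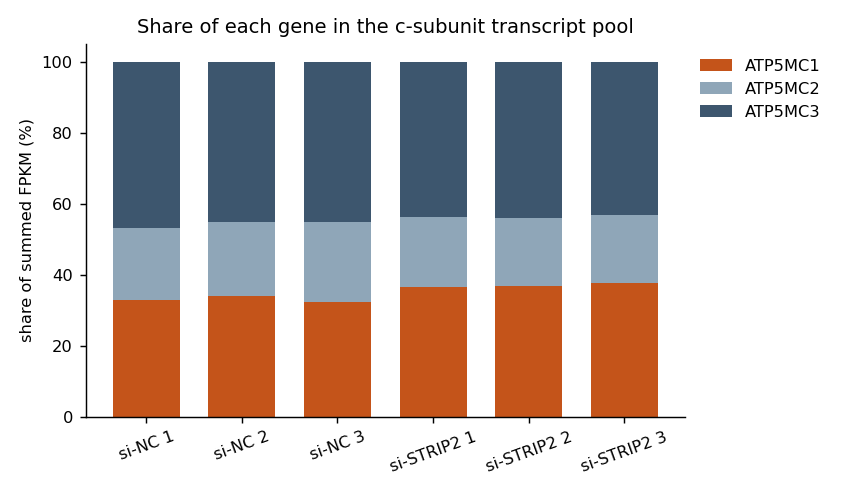
Share of ATP5MC1, ATP5MC2 and ATP5MC3 in their summed FPKM (y axis, percent) in each of the 6 libraries (x axis), as stacked bars. The ATP5MC1 part is 32.4% to 34.0% in si-NC and 36.6% to 37.7% in si-STRIP2.

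The other parts of the ATP synthase rose less or did not pass the test. In the F1 head, ATP5F1B, which carries the catalytic sites, rose from 328 ± 12.01 to 403 ± 8.60 FPKM (log2 fold change 0.29), and ATP5F1A, its partner α subunit, rose by 0.30 on the log2 scale. The central stalk turns inside the head. Its γ subunit ATP5F1C rose by 0.32, its δ subunit ATP5F1D by 0.56 and its ε subunit ATP5F1E by 0.22 on the log2 scale. ATP5F1D had 7.53, 7.76 and 6.80 FPKM in si-NC and 11.03, 12.03 and 9.63 in si-STRIP2, with no overlap. All 5 genes passed in edgeR, with ATP5F1E having the highest adjusted p (0.000238).

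The peripheral stalk holds the head still against the ring, and 2 of its 4 genes were called higher. ATP5PB (ENSG00000116459, chromosome 1, 111448864 to 111462773, plus strand), its b subunit, had 66.9, 67.8 and 62.4 FPKM in si-NC and 96.4, 92.5 and 98.1 in si-STRIP2. Its log2 fold change was 0.54 (standard error 0.041, edgeR adjusted p = 4.12e-13), and the groups were far apart. ATP5PD, the d subunit, had 51.4, 50.9 and 48.3 FPKM in si-NC and 55.9, 46.8 and 49.3 in si-STRIP2. The si-STRIP2 values of ATP5PD lay on both sides of the si-NC values, and its log2 fold change was 0.0090 (standard error 0.047, edgeR adjusted p = 0.887). ATP5PO, also called OSCP, had a log2 fold change of 0.072 (edgeR adjusted p = 0.188). ATP5PF, the F6 subunit, was called at 0.12 (edgeR adjusted p = 0.0404), but the call was lost under 12 of 19 alternatives other than the 1.2-fold test. The overlapping genes of ATP5PF, chiefly GABPA, held 137% as many counts, and WDR77, which overlaps ATP5PB, held 11.9% as many as ATP5PB. Genes that overlap ATP5PD, chiefly KCTD2, held 23.2%. The library kit keeps strand, and whether the authors' counting used it is not given in the sources used here.

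Among the small membrane subunits around the ring, ATP5MF (f) rose by 0.40 and ATP5ME (e) by 0.34 on the log2 scale (edgeR adjusted p = 6.26e-09 and 0.000257). The genes overlapping ATP5MF, chiefly CPSF4, held 56.0% as many counts, and MYL5, which overlaps ATP5ME, held 19.3% as many as ATP5ME. ATP5MG (g), ATP5MJ and ATP5MK were not called. ATP5MK had 88.7, 84.3 and 86.3 FPKM in si-NC and 92.4, 83.4 and 90.1 in si-STRIP2, which overlap, and a log2 fold change of 0.032 (edgeR adjusted p = 0.574). Its overlapping genes, chiefly TAF5, held 23.8% as many counts. ATP5IF1 encodes the inhibitor that binds the F1 head when the membrane loses its proton gradient. It had 18.5, 19.2 and 18.9 FPKM in si-NC and 22.0, 22.0 and 21.8 in si-STRIP2. Its log2 fold change was 0.21 (standard error 0.051, edgeR adjusted p = 0.000619), below that of the ring and close to that of ATP5F1E. ATP5MGL, a copy of ATP5MG, had 0 counts in all 6 libraries.

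**Figure D3:**
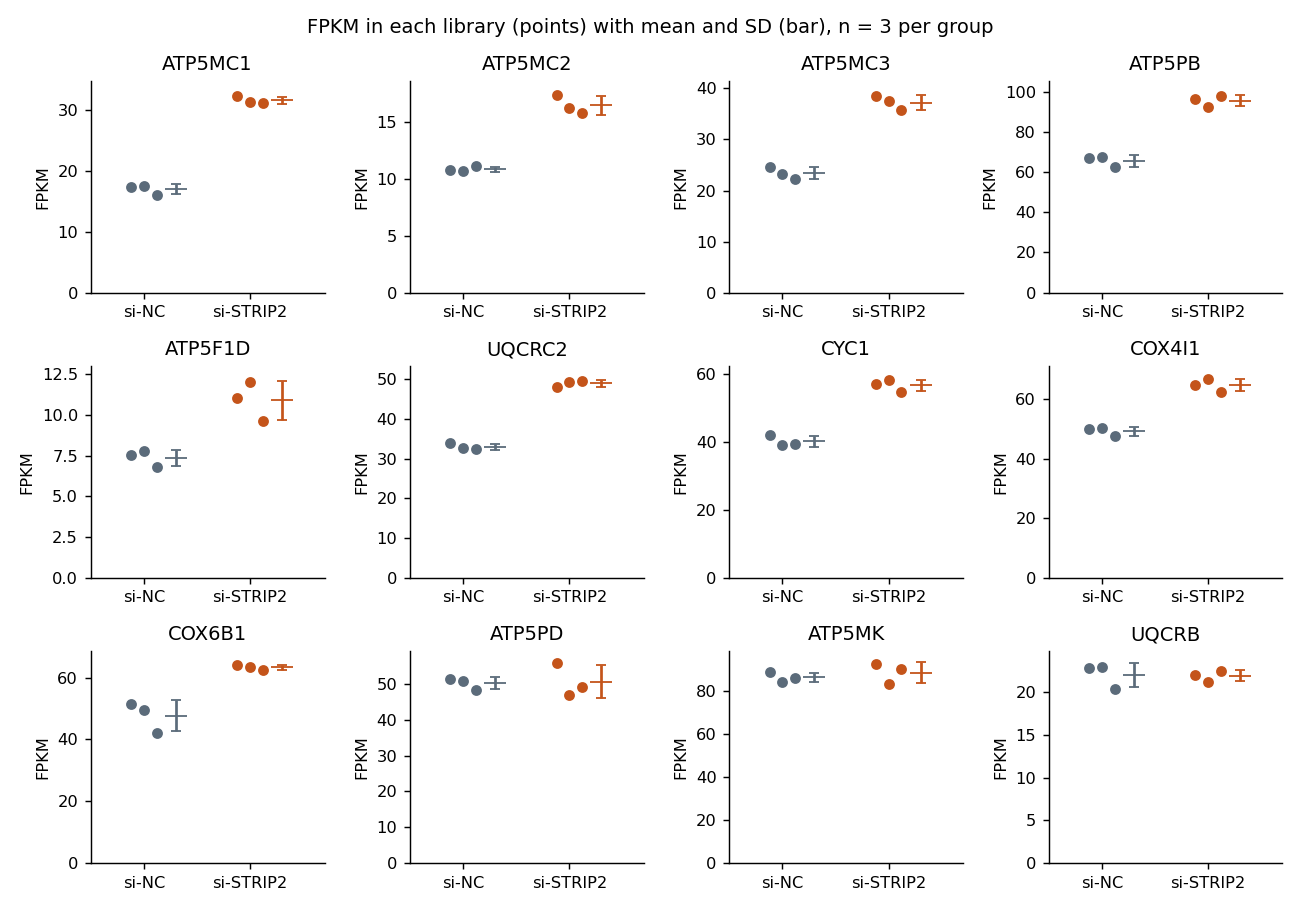
FPKM (y axis, from 0) of 12 genes in each library of si-NC and si-STRIP2 (x axis), as points, with the mean and SD of 3 libraries as a bar. The groups are apart for all but the last 3 genes, and overlap for ATP5PD, ATP5MK and UQCRB.

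In complex III the rise was largest for the core protein UQCRC2 and for cytochrome c1. UQCRC2 (ENSG00000140740, chromosome 16, 21953288 to 21983660, plus strand), a core protein on the matrix side, had 33.9, 32.8 and 32.4 FPKM in si-NC and 48.01, 49.4 and 49.7 in si-STRIP2. Its log2 fold change was 0.57 (standard error 0.041, edgeR adjusted p = 7.35e-14). CYC1, which encodes cytochrome c1 and passes electrons to cytochrome c, had 41.9, 39.0 and 39.3 FPKM in si-NC and 57.0, 58.0 and 54.8 in si-STRIP2. Its log2 fold change was 0.49 (standard error 0.045, edgeR adjusted p = 2.16e-11). Both genes had si-STRIP2 libraries well clear of the controls. UQCRC1, the other core protein, had 34.3, 33.5 and 31.6 FPKM in si-NC and 41.2, 41.9 and 41.1 in si-STRIP2 (log2 fold change 0.32, SE 0.043, edgeR adjusted p = 9.73e-08). UQCRH, the hinge protein beside cytochrome c1, had 138, 141 and 126 FPKM in si-NC and 166, 169 and 162 in si-STRIP2 (log2 fold change 0.30, SE 0.042, edgeR adjusted p = 3.37e-07).

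The remaining genes of complex III were divided. UQCR10 and UQCRQ, small membrane subunits, rose by 0.38 and 0.28 on the log2 scale. UQCRFS1, the Rieske iron-sulfur protein, was called at 0.11 (edgeR adjusted p = 0.0455), but its FPKM groups overlapped and 14 of 19 alternatives ended the call. UQCRB, a small subunit near the ubiquinone site, had 22.8, 22.9 and 20.4 FPKM in si-NC and 22.1, 21.2 and 22.5 in si-STRIP2. UQCR11 had 21.1, 18.8 and 18.8 FPKM in si-NC and 19.1, 19.6 and 18.9 in si-STRIP2. Both genes overlapped between groups, with log2 fold changes of -0.012 and -0.037 and edgeR adjusted p-values of 0.841 and 0.614. UQCRHL, a close copy of UQCRH, had 90 to 125 counts per library and a log2 fold change of 0.26 (edgeR adjusted p = 0.0800), and reads of UQCRH could have been counted there.

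Complex IV had the smallest median of the 3 complexes, and its largest changes were those of COX6B1 and COX4I1. COX4I1 (ENSG00000131143, chromosome 16, 85798633 to 85807068, plus strand), the subunit through which ATP and ADP act on the enzyme, had 49.99, 50.2 and 47.5 FPKM in si-NC and 64.9, 66.7 and 62.6 in si-STRIP2. Its log2 fold change was 0.39 (standard error 0.040, edgeR adjusted p = 3.64e-10), and EMC8, which overlaps it, held 19.5% as many counts. COX6B1, on the side of the intermembrane space, had 51.4, 49.5 and 42.2 FPKM in si-NC and 64.0, 63.5 and 62.4 in si-STRIP2 (log2 fold change 0.40, SE 0.053, edgeR adjusted p = 6.49e-08). The si-NC libraries of COX6B1 were spread more widely than those of si-STRIP2, yet all lay below them. COX7B had 19.1, 19.1 and 19.4 FPKM in si-NC and 26.0, 23.5 and 24.1 in si-STRIP2 (log2 fold change 0.35, edgeR adjusted p = 1.09e-07). COX8A had 104, 93.2 and 103 FPKM in si-NC and 131, 123 and 129 in si-STRIP2 (log2 fold change 0.34, edgeR adjusted p = 9.42e-07).

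The other called genes of complex IV were COX5A (log2 fold change 0.28), COX6C (0.22), COX5B (0.18), COX6A1 (0.17) and COX7C (0.13). The zinc-binding subunit COX5B had overlapping groups, with 33.6, 33.1 and 27.1 FPKM in si-NC and 38.7, 34.8 and 33.4 in si-STRIP2. Its call was lost under 7 of 19 alternatives, among them the fit without si-NC 3 (log2 fold change 0.091, edgeR adjusted p = 0.193). The call of COX7C was also lost without si-NC 3 (log2 fold change 0.083, edgeR adjusted p = 0.0682). Genes that overlap COX6C, chiefly VPS13B, held 42.2% as many counts. COX7A2 had 48.9, 50.1 and 44.9 FPKM in si-NC and 52.1, 49.0 and 50.2 in si-STRIP2, which overlap (log2 fold change 0.069, edgeR adjusted p = 0.196). COX7A2L, the factor that joins complex IV to complex III in supercomplexes, had 17.9, 18.9 and 17.7 FPKM in si-NC and 16.5, 17.9 and 17.5 in si-STRIP2. Its groups overlapped (log2 fold change -0.072, edgeR adjusted p = 0.168).

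Isoforms of complex IV that are known from heart and skeletal muscle, lung or testis were at or near 0. COX4I2, COX6A2 and COX7B2 had 0 counts in all 6 libraries, and a count of 0 allows an expected count of up to 3. COX7A1 and COX8C had at most 2 counts in any library. COX6B2 had 33, 27 and 25 counts in si-NC and 24, 23 and 22 in si-STRIP2, and was not called (log2 fold change -0.23, SE 0.25, edgeR adjusted p = 0.451).

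Levels of the subunit genes spread widely on the FPKM scale. In si-NC the highest were ATP5F1B at 328, UQCRH at 135, COX7C at 100.5 and COX8A at 100.1 FPKM, and the lowest of the genes with over 1 FPKM were ATP5F1D at 7.36 and UQCRHL at 2.53. The deposited exonic size counts every annotated exon, and for UQCRB it was 12600 bases, 19.5 times the median length of its coding transcripts (645 bases). For ATP5MG and ATP5MF it was 11.6 and 6.59 times that length. Per kilobase of the median coding transcript, UQCRB ranked 1 of the 46 genes in place of 26, and ATP5F1B ranked 2. The counts still cover all annotated exons while this length does not, so levels by this length can be too high. The order of levels between genes therefore depends on the length used.

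None of the subunits encoded by the mitochondrial genome was called higher. Of 6 such genes of complexes III, IV and ATP synthase, 0 were called higher and 4 lower, against 27.0% of all tested genes called lower, with a median log2 fold change of -0.35. MT-CYB, which encodes cytochrome b of complex III, had 3698, 2493 and 4481 FPKM in si-NC and 2476, 2463 and 2626 in si-STRIP2 (log2 fold change -0.50, SE 0.10, edgeR adjusted p = 6.93e-05). Relative to the si-NC mean, its si-NC libraries lay at 0.056, -0.51 and 0.33 on the log2 scale. The edgeR standard error is drawn toward the spread of other genes and does not show this spread alone. MT-ATP8, of the ATP synthase, had 1470, 971 and 1747 FPKM in si-NC and 1112, 884 and 1036 in si-STRIP2 (log2 fold change -0.47, SE 0.10, edgeR adjusted p = 0.000171). For all 6 genes the groups overlapped: si-NC 2 lay within or below the range of the si-STRIP2 libraries, and si-NC 3 above it. MT-CO1 and MT-ATP6 were called at -0.45 and -0.25 on the log2 scale, with the same overlap, and their calls were not followed under the alternatives. All 6 genes had si-NC 2 lowest and si-NC 3 highest of the si-NC libraries, so the 4 calls may not be independent. The calls of MT-CYB and MT-ATP8 were each lost under 3 of 19 alternatives. These were DESeq2 (DESeq2 adjusted p = 0.0716 for MT-CYB and 0.113 for MT-ATP8) and limma on log2(FPKM + 1) and log2(FPKM + 0.1). On log2(FPKM + 1) the limma adjusted p was 0.0718 for MT-CYB and 0.0975 for MT-ATP8. Without si-NC 2, the log2 fold change of MT-CYB was -0.71 and that of MT-ATP8 -0.68, and without si-NC 3 they were -0.30 and -0.29. MT-CO2, the subunit that receives electrons from cytochrome c, had a log2 fold change of 0.027 (edgeR adjusted p = 0.835), and MT-CO3 one of -0.15 (edgeR adjusted p = 0.250). The 2 kinds of subunit were read from the same fit, and the difference between them was not tested.

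**Figure D4:**
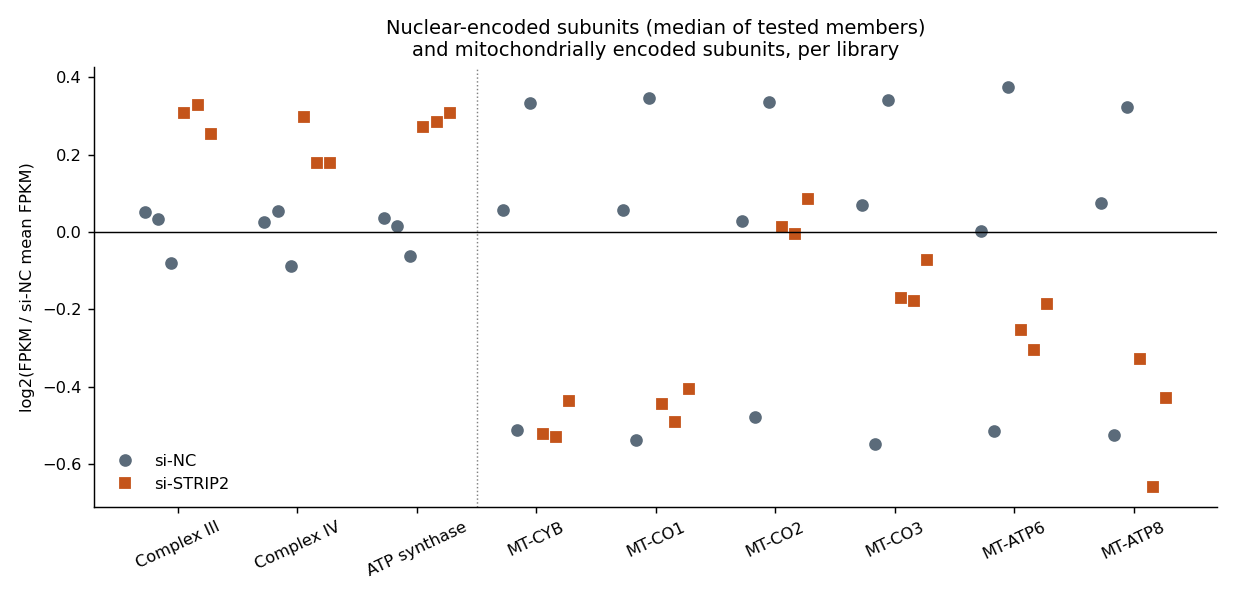
Log2 of FPKM over the si-NC mean (y axis) in each library, as the median over the tested nuclear genes of complex III, complex IV and ATP synthase (left of the dotted line) and for each mitochondrial gene (right), with circles for si-NC and squares for si-STRIP2. The nuclear medians of all si-STRIP2 libraries lie above 0, and the mitochondrial genes spread more between the si-NC libraries than the nuclear medians do.

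Genes that work beside these complexes were read from lists, whose counts stand against the 27.8% of all tested genes called higher and the 27.0% called lower. Of 9 assembly factors of complex III, 6 were called higher and 0 lower, with a median log2 fold change of 0.28. UQCC1, which helps cytochrome b to be made and inserted, rose by 0.64, and BCS1L, which inserts the Rieske protein, rose by 0.56 on the log2 scale (edgeR adjusted p = 1.64e-11 and 3.87e-09). In the complex IV list, 8 of 27 tested genes (29.6%) were called higher, a share near that of all tested genes, and 3 (11.1%) lower, with a median of 0.083. HIGD1A, a small hypoxia-induced protein that binds complex IV, fell from 49.96 ± 3.20 to 32.4 ± 0.379 FPKM (log2 fold change -0.63, edgeR adjusted p = 5.44e-14). CMC2, a twin-CX9C protein of complex IV assembly, fell by 0.35 on the log2 scale (edgeR adjusted p = 2.55e-06). NDUFA4, a complex IV subunit whose name lies outside the symbol rule, was not called (log2 fold change -0.084, edgeR adjusted p = 0.137), nor was its hypoxia-linked relative NDUFA4L2.

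Of 7 genes of ATP synthase assembly and coupling, 3 were called higher and 2 lower. ATPAF1, a chaperone of the β subunit, rose by 0.27 and TMEM242 fell by 0.19 on the log2 scale (edgeR adjusted p = 7.79e-06 and 0.00941). All 4 tested carriers that bring ADP and phosphate to the enzyme were called higher, with a median of 0.35. SLC25A5, an ADP/ATP carrier, rose from 206 ± 6.49 to 277 ± 3.96 FPKM (log2 fold change 0.42, edgeR adjusted p = 7.73e-11), and SLC25A3, the phosphate carrier, by 0.34 on the log2 scale (edgeR adjusted p = 9.29e-09). Of 8 genes of complex II, 3 were called higher and 1 lower, with a median of 0.023. SDHA, its flavoprotein, rose by 0.66 and SDHC, a membrane anchor, fell by 0.58 on the log2 scale (edgeR adjusted p = 1.51e-11 and 6.23e-13). Cytochrome c itself did not pass the test, with 94.8, 96.2 and 87.4 FPKM of CYCS in si-NC and 91.1, 89.5 and 90.9 in si-STRIP2 (log2 fold change -0.039, SE 0.043, edgeR adjusted p = 0.449). HCCS, the enzyme that attaches heme to cytochrome c, fell by 0.37 on the log2 scale (edgeR adjusted p = 5.07e-06).

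Of 11 tested genes that shape cristae and keep the inner membrane, 5 were called higher and 2 lower, with a median of 0.18. The proteases of OPA1 processing moved apart: OMA1 rose by 0.52 and YME1L1 fell by 0.37 on the log2 scale (edgeR adjusted p = 1.74e-08 and 1.73e-09). Of 15 tested genes for transcription of respiratory or mitochondrial genes, 7 were called higher and 3 lower, with a median of 0.12. POLRMT, the mitochondrial RNA polymerase, had 4.17, 4.05 and 4.14 FPKM in si-NC and 7.60, 8.52 and 7.08 in si-STRIP2, with no overlap (log2 fold change 0.90, SE 0.070, edgeR adjusted p = 4.36e-13). TFB1M, a methyltransferase of mitochondrial ribosomal RNA, rose by 0.52 on the log2 scale (edgeR adjusted p = 4.74e-08).

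**Figure D5:**
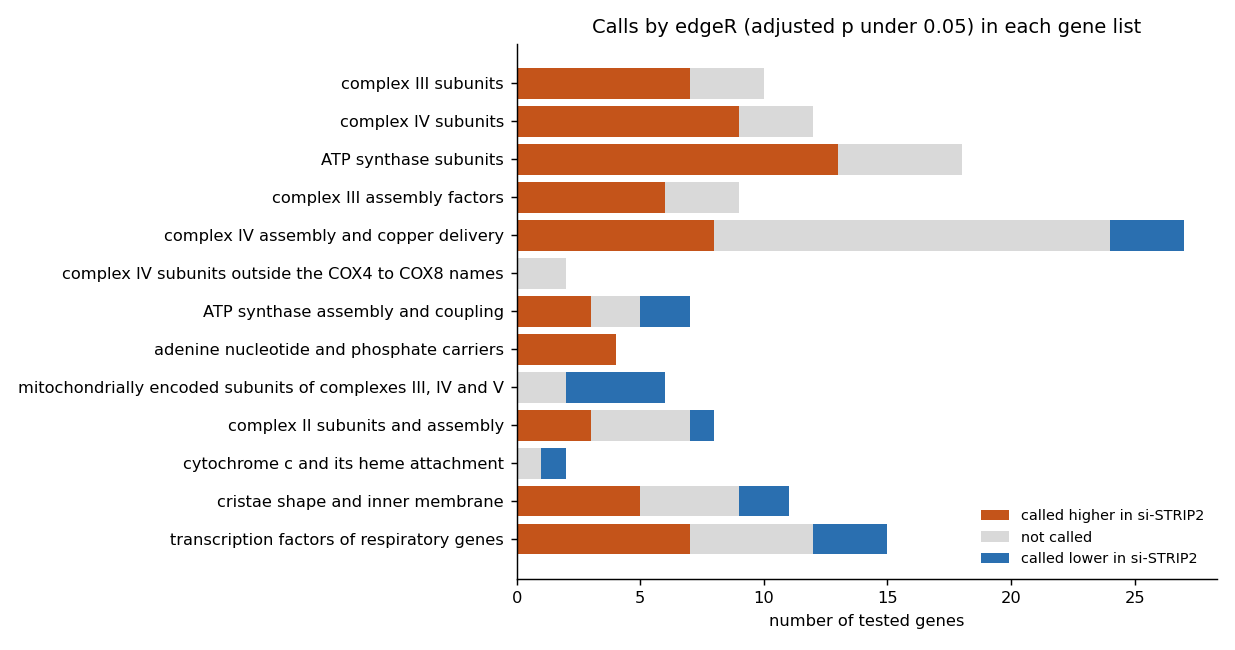
Number of tested genes (x axis) called higher, not called or called lower by edgeR in the 3 complexes and in each list of related genes (y axis). Among the 3 complexes, complex III assembly and the carriers no gene is called lower, and the mitochondrially encoded genes have none called higher.

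Promoters of the subunit genes were searched for the motifs of factors known from respiratory genes. RefSeq sequences (GRCh38.p14), of 250 bases before and 50 bases after a start site, were matched by symbol for 35 of the 46 genes. The letters searched on both strands were CGCNTGCGC for NRF1, CCGGAAG for the ETS family with GABP, and AANATGGC for YY1. NRF1 letters were in 12 of 35 promoters (34.3%), against 8.05% of 27305 promoters of the same length. ETS letters were in 13 (37.1% against 10.7%) and YY1 letters in 9 (25.7% against 6.82%). At least 1 of the motifs was in 23 promoters. Of the 23 promoters of genes called higher, 34.8% held NRF1 letters, 39.1% ETS letters and 34.8% YY1 letters. Of the 9 promoters of tested genes that were not called, these shares were 33.3%, 44.4% and 11.1%. The shares are descriptions, a match is not a binding site, and no factor binding was measured here.

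Promoters are printed 5′ to 3′ on the strand of the gene with motif letters in capitals, for genes that rose with and without a match and for UQCR11, which was not called. UQCRC1 (chr3:48609597-48609896, minus strand) has a pair of NRF1 matches and, in its first transcribed bases, a YY1 match. ATP5PB (chr1:111449214-111449513, plus strand) has a YY1 match on the opposite strand at the start site. ATP5MC2 (chr12:53676034-53676333, minus strand) has 1 NRF1 match, and ATP5MC1 (chr17:48892537-48892836, plus strand), with the largest rise, has no match to any of the 3. UQCR11 (chr19:1605413-1605712, minus strand) has 2 ETS and 2 NRF1 matches.
UQCRC1: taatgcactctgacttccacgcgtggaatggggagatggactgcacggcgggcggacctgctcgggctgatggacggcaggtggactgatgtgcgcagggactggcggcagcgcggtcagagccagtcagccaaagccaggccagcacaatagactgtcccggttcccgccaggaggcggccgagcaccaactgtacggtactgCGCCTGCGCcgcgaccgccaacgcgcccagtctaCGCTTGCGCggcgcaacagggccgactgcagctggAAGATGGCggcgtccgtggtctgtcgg
ATP5PB: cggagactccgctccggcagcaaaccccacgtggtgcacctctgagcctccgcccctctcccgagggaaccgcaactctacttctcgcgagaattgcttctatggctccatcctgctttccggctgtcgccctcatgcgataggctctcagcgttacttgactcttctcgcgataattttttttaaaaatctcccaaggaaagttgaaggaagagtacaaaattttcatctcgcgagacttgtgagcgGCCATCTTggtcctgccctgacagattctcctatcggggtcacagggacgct
ATP5MC2: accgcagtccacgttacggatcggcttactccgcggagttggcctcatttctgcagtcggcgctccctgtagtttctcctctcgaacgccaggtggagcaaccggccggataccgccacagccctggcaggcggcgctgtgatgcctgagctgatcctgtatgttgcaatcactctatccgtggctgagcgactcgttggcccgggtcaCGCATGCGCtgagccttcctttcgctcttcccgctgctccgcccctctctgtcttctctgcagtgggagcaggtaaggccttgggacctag
ATP5MC1: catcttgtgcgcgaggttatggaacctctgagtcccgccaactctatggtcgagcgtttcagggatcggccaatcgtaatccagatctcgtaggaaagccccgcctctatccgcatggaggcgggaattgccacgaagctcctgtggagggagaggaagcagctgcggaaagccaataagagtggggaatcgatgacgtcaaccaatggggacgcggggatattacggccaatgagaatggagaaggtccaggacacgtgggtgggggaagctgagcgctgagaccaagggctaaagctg
UQCR11: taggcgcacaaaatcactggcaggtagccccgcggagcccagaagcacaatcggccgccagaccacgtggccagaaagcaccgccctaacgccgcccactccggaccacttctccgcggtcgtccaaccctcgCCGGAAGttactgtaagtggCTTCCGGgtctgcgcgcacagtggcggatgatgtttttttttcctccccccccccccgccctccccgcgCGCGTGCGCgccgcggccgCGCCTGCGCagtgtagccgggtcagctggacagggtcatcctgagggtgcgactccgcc
UQCRC1 and UQCR11 both hold 2 matches to the NRF1 letters, and their log2 fold changes were 0.32 and -0.037. The printed promoters were chosen with the fold changes known, and a relation between matches and fold change was not tested.

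The genes of the factors themselves were measured too. NRF1 had 8.53, 8.15 and 8.05 FPKM in si-NC and 6.65, 7.67 and 6.86 in si-STRIP2, so that all si-STRIP2 libraries were lower (log2 fold change -0.23, SE 0.066, edgeR adjusted p = 0.00341). GABPA, which holds the DNA-binding part of GABP, had a log2 fold change of -0.30 and its partner GABPB1 one of -0.30, with edgeR adjusted p-values of 1.70e-06 and 3.99e-05. GABPA overlaps ATP5PF, and whether the counting used strand is not given in the sources used here. The gene YY1 did not pass the test (log2 fold change -0.0046, edgeR adjusted p = 0.936). Other regulators of the list were called higher: the coactivators PPARGC1B and PPRC1 rose by 0.33 and 0.24 on the log2 scale and the factor SP1 by 0.12 (edgeR adjusted p = 0.001502, 3.20e-05 and 0.00987). PPARGC1A, a related coactivator, had 0 counts in all 6 libraries.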

How the data were processed

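Poly(A) RNA of 6 HCT116 libraries was sequenced. The submitters' processing notes name bcl2fastq 2.20.0.422, FastQC 0.10.1, cutadapt 1.9.1, HISAT2 2.2.1, HTSeq 0.6.1 and the build GRCh38.p13; neither the annotation release nor the strand setting of the counter is given in the sources used here. The authors deposited raw counts per Ensembl gene, whole numbers with a different total per library. The deposited FPKM values equal the counts scaled by exonic size and column total, to within 0.005. Libraries of 17184963 to 21721218 counts limit the precision of low genes, and a listed count of 0 allows an expected count of up to 3.

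Tests used R 4.3.3 and edgeR 4.0.16 on the counts: filterByExpr (minimum count 10, leaving 15687 genes with 99.8% of counts), TMM scaling, and a 2-sided quasi-likelihood F test with group as the only term, adjusted by Benjamini-Hochberg over all tested genes. Standard errors are the absolute log2 fold change over the square root of F, so they too draw on the spread of other genes. The script was tested on simulated data. Alternatives used DESeq2 1.42.0 and limma 3.58.1, the latter on log2(FPKM + 1), log2(FPKM + 0.1) or log2(TPM + 1) of genes with at least 1 FPKM in 3 libraries. Motifs were searched in 1 listed promoter per symbol.

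The members and lists were chosen with earlier results of these data known, and the lists are described by counts, with no test. Values per library are given for the 4 called genes with the smallest adjusted p in each complex, up to 2 uncalled genes with the largest, and ATP5MC1 to ATP5MC3, ATP5IF1, COX7A2L and COX4I1. For each list the 2 called genes with the smallest adjusted p are named; other genes were chosen after their values were seen. In the list on cristae, 1 symbol (PHB) was not matched.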

Additional observations from a re-analysis of the deposited data

How the results depend on the processing

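The fits were repeated under 18 other settings and under 2 more chosen after the data were seen, limma on log2(TPM + 1) and a fit without mitochondrial genes. Under each of the 20, all 29 called genes stayed higher and 0 genes of the 3 complexes were called lower. Outside the test against a 1.2-fold change, which by construction called fewer genes (12 here, and 1780 higher and 1943 lower among all tested genes), the number called higher ranged from 23 under log2(TPM + 1) to 29. That setting also called fewer of all genes, 2820 higher and 2461 lower, and the cause was not tested. Calls of 23 genes held under the other 19 alternatives, and UQCRFS1, ATP5PF, COX5B, COX7C, COX6A1 and COX6C lost theirs under 1 or more.

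The spread of a median was taken as its SD between the si-STRIP2 libraries, without those of si-NC. The medians moved by more than this spread under the length offset (0.25 for complex III and 0.27 for ATP synthase). For ATP synthase, the median also did so with a filter of 1 FPKM (0.28) and without si-NC 1 (0.32). Without si-NC 3, the medians of complex III (0.24) and ATP synthase (0.26) moved past it as well. The cause of these shifts was not tested. With each library left out in turn, the number called higher ranged from 25 to 29, the median from 0.24 to 0.32 for complex III, from 0.14 to 0.25 for complex IV and from 0.26 to 0.32 for ATP synthase, and the ATP5MC1 share difference from 3.59 to 4.37 points. Genes near 0 changed sign without passing the test. UQCRB was at 0.027 under the length offset, and from -0.066 to 0.019 with a library left out. UQCR11 ranged from -0.075 to 0.030 with a library left out, and ATP5MK was at -0.041 under the length offset. ATP5PD was at -0.021 under the length offset, at -0.0091 with a filter of 1 FPKM, at -0.0034 without mitochondrial genes, and from -0.058 to 0.062 with a library left out.

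Libraries with the same number did not deviate together (correlations of -0.086, -0.013 and -0.072 for the 3 numbers), so these values show no pairing by number. They cannot exclude a pairing with a small effect. A fit with the replicate number as a block called 27 genes of the complexes higher and 0 lower.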
